A study of Mus musculus with 8 samples.

Results

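The axon guidance ligands and receptors described here were the entries of the deposited expression table whose gene symbols belong to the semaphorin (Sema), plexin (Plxn), neuropilin (Nrp), Eph receptor (Eph), ephrin (Efn), Slit, Robo, netrin (Ntn), Unc5 and Dcc families. Within these families every entry was taken by its symbol. Of the 36808 genes listed in the table, 70 entries met this rule, under 69 symbols, since Efna5 was listed under 2 identifiers that share exons. They were 20 semaphorins, 9 plexins, 2 neuropilins, 14 Eph receptors, 9 ephrins, 3 Slits, 4 Robos, 4 netrins and a group of 5 made up of the Unc5 receptors and Dcc. All 70 are annotated as protein-coding in GENCODE vM1.

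These families steer the growth cone of an extending axon. Netrins are secreted by the floor plate and attract axons through Dcc or repel them through Unc5 receptors, and Slits repel axons through Robo receptors. Secreted class 3 semaphorins bind neuropilins that signal with plexins, most other semaphorins bind plexins directly, and ephrins and Eph receptors sit on opposing cells and signal into both. All are known for guiding spinal motor axons and commissural axons, and many also act in blood vessels, mesenchyme and the early embryo.

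RNA was sequenced from mouse embryonic stem cells (ESCs) and from cells at day 5 of spinal motor neuron (SMN) differentiation, with 1 library per condition and 8 libraries in all. The ESC libraries were E14 wild type (129/Ola background), CJ7 wild type (129/S), Suz12delta (C57/BL6) and Eednull (BALB/cR1), and the day 5 libraries were E14, Suz12GT (129/Ola, as E14), Suz12delta and Eednull. SUZ12 and EED are core subunits of Polycomb Repressive Complex 2 (PRC2), which deposits the repressive histone mark H3K27me3. Suz12GT is a gene trap that fuses SUZ12 to β-galactosidase and keeps part of H3K27me3, Suz12delta is a truncating allele and Eednull a point mutation, and the last 2 lines lose nearly all H3K27me3. ESCs were grown on irradiated mouse embryonic fibroblasts that were removed by plating before use, and SMN differentiation used withdrawal of LIF with retinoic acid and a Hedgehog agonist. Day 5 precedes terminal differentiation. Each mutant genotype was represented by 1 cell line and the wild type by E14 and, in ESCs alone, CJ7, so that line, strain background and genotype cannot be told apart in comparisons with E14, except that Suz12GT shares the E14 background. The CJ7 library was labelled as prepared and sequenced together with one whose name points to Eednull ESCs, so preparation batch and genotype cannot be told apart where Eednull ESCs are compared with E14 ESCs or with Eednull day 5 cells. A day 0 library of Suz12GT was not analysed here.

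Values are FPKM, a fragment count divided by transcript length and by the number of fragments mapped in the library. Comparisons between libraries depend on this scaling, as the shifts given below show. Since read counts are not part of the table, sequencing depth is unknown and no counting interval is given. The FPKM values of a library summed to between 389165 and 797748. Differences are log2 ratios after 0.1 was added to each FPKM value, taken where a gene reached 0.1 FPKM in any library of the comparison, and a gene at least 2-fold apart (a log2 ratio of 1 or more) was counted as higher or lower. With no replicate of any condition there is no test of any difference. The nearest gauge of spread is that between the 2 wild-type ESC lines, whose members differed by a median of 0.44 log2 units in either direction. This gauge can hold a difference of preparation batch as well as of line. Scaling the libraries to a common 75th percentile moved the median log2 ratio of all genes by over 0.1 in the comparisons that involve Suz12delta, from -0.28 to 0.05 in ESCs, from 0.26 to 0.11 at day 5 and from 0.43 to 0.07 over differentiation, and in those of E14 over differentiation (-0.20 to -0.07), of Eednull ESCs (0.04 to 0.19) and of CJ7 (-0.12 to 0.09). An entry listed at 0 can be a failed estimate. Among the members this concerned Nrp2 in E14 ESCs and Sema4c in CJ7 ESCs, which reached 1 FPKM in all other libraries. No ratio to a library at 0 is given.

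The mutated genes and the cell types were checked by their transcripts. Suz12 was at 6.21 FPKM in Suz12delta ESCs and at 35.7 to 53.1 FPKM in the other ESC libraries, but at day 5 its 11.6 FPKM in Suz12delta cells lay inside the 10.3 to 17.6 FPKM of the other lines. Eed was at 42.4 FPKM in Eednull ESCs and 11.5 FPKM in Eednull day 5 cells, also inside the range of the other lines, and a point mutation or gene trap can leave a transcript that is still counted, so these levels do not check those labels. The summed level of 5 markers of pluripotent cells was 337 to 903 FPKM in ESCs and 1.05 to 11.4 FPKM at day 5. At day 5 the motor neuron markers found (Mnx1, Isl1, Lhx3 and Chat) summed to 68.2 FPKM in E14, 74.3 FPKM in Suz12GT, 10.5 FPKM in Suz12delta and 7.28 FPKM in Eednull cells, and the neuron markers Dcx, Elavl3 and Stmn2 to 190, 334, 5.90 and 5.89 FPKM, with Tubb3 listed at 0 in all 8 libraries. The 12 markers of fibroblasts and mesenchyme went the other way, with sums of 5.33, 21.8, 127 and 67.1 FPKM in the same order. In ESCs these 12 summed to 97.6 FPKM in E14, 121 FPKM in CJ7, 563 FPKM in Suz12delta and 277 FPKM in Eednull. Dcx, Elavl3 and Stmn2 summed to 77.2, 71.6, 40.3 and 51.3 FPKM in the same ESC libraries. Most of that was Stmn2, at 75.7, 70.1, 39.9 and 49.9 FPKM, so this sum was not particular to neurons. Dcx was at 0, 0, 0.101 and 0 FPKM there. In bulk RNA, fewer cells of a type and less RNA per cell cannot be told apart. What part these cell types have in the results that follow was not tested.

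Axon guidance genes were expressed in ESCs and became more abundant at day 5. The summed level of the 70 entries was 269, 203, 337 and 271 FPKM in E14, CJ7, Suz12delta and Eednull ESCs, and 565, 785, 529 and 549 FPKM in E14, Suz12GT, Suz12delta and Eednull cells at day 5. Their median was 1.38 to 2.21 FPKM in ESCs and 3.98 to 6.26 FPKM at day 5. The highest value of 57 of the 70 entries was in a day 5 library, and for 32 of these it was the Suz12GT library. The same counts over all genes were not computed, so these 2 counts are not read as particular to the members. Of all genes, 16.8% were at least 2-fold higher and 4.40% lower in Suz12GT than in E14 day 5 cells. There were 29 entries at 1 FPKM or more in all 8 libraries, and 34 reached 10 FPKM in at least 1. Epha6, Robo3, Ntn5, Plxnb3 and Sema3g stayed under 1 FPKM in all 8 libraries.

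**Figure D1:**
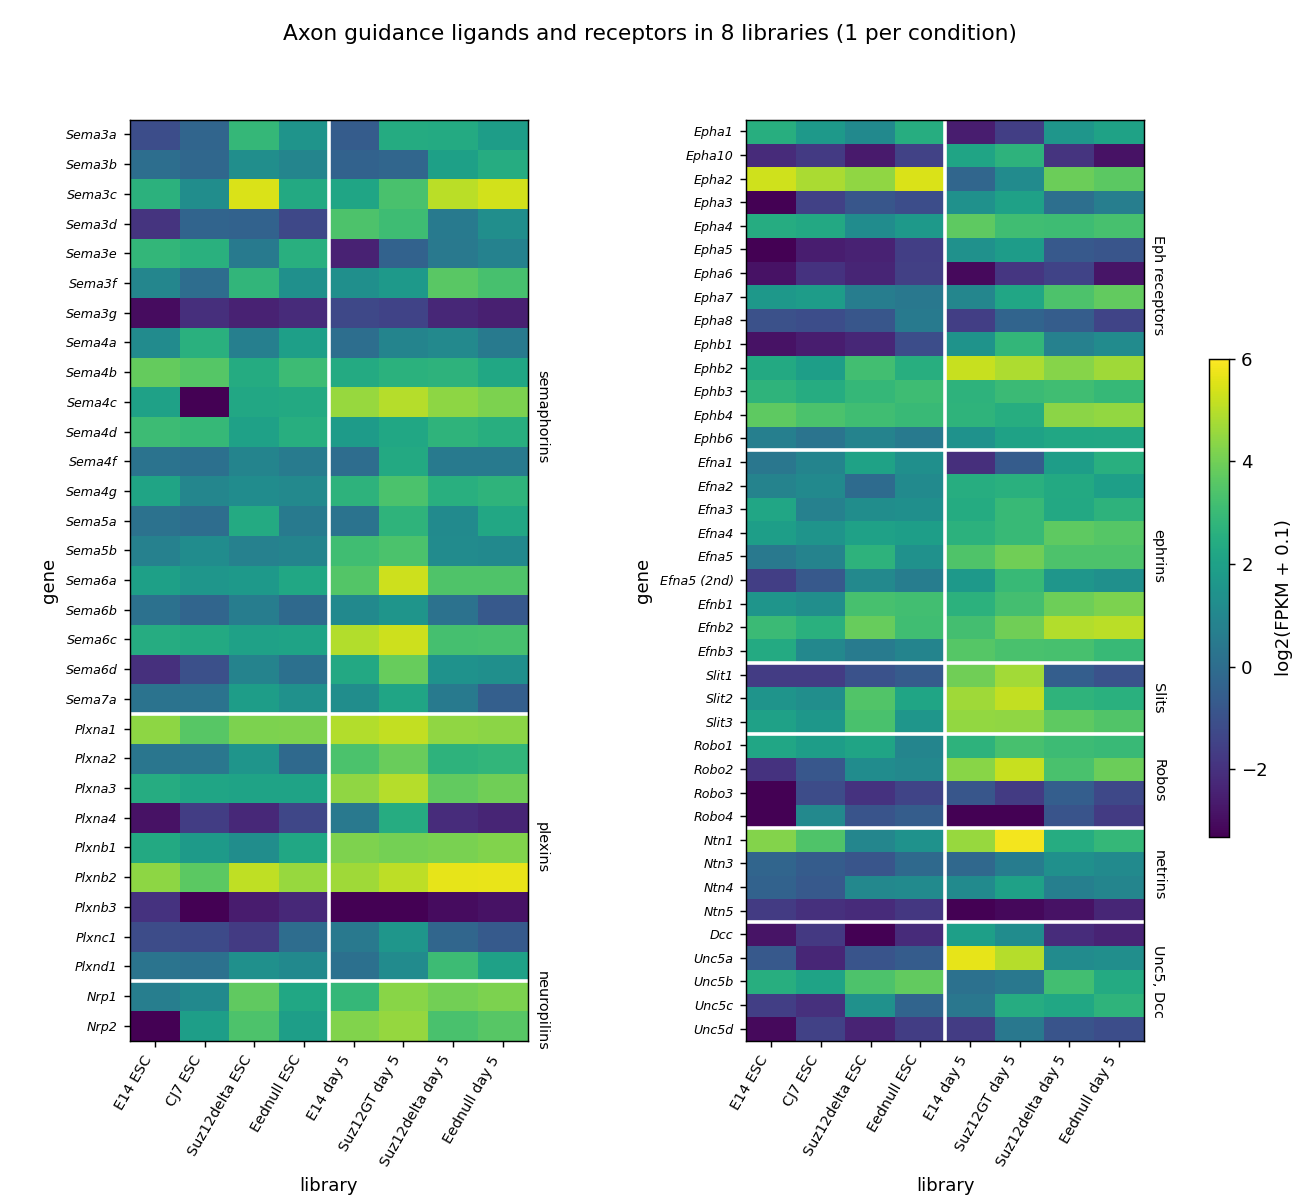
Level of every axon guidance entry in the 8 libraries, drawn as log2 of FPKM + 0.1 in colour, with genes in rows grouped by family and libraries in columns (ESCs left of the white line, day 5 right of it). Slit1, Unc5a and Epha10 are brightest in E14 and Suz12GT day 5 cells. Among the day 5 libraries Sema3c and Epha2 are brighter in Suz12delta and Eednull than in E14 and Suz12GT cells. Epha2 is brighter still in ESCs, and Sema3c is as bright in Suz12delta ESCs.

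The comparison of E14 day 5 with E14 ESCs asks which members change as wild-type cells enter the motor neuron programme. Of 68 members compared, 36 (52.9%) were at least 2-fold higher at day 5, where 18.3% of all genes were, and 10 (14.7%) were at least 2-fold lower, where 25.8% of all genes were. The members' median log2 ratio was 1.16, against -0.20 over all genes. Among members with no value of 0 in these libraries, the largest rises were those of Unc5a (6.35 on the log2 scale), Robo2 (6.32), Slit1 (5.65), Sema3d (5.31) and Dcc (4.76). The largest falls were those of Epha2 (-5.59), Sema3e (-5.31), Epha1 (-5.07), Efna1 (-2.46) and Unc5b (-2.38). All 3 Slits were higher at day 5, as were 8 of 20 semaphorins, 5 of 9 plexins, 6 of 13 Eph receptors compared and 5 of 9 ephrins. Among the counted changes, Epha3, Epha5, Robo3, Nrp2, Ntn5 and Plxnb3 involved a value of 0.

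The members at least 2-fold apart between Suz12GT and E14 at day 5 were all higher in Suz12GT, except that 1, Robo3, was lower with a pseudocount of 0.01. Of 67 members compared, 21 (31.3%) were at least 2-fold higher in Suz12GT cells, where 16.8% of all genes were, and 0 were at least 2-fold lower, where 4.40% of all genes were. Over protein-coding genes alone 17.3% were higher and 2.02% lower. With 67 members a count of 0 lower is near that share. The members' median log2 ratio was 0.58, against 0.13 over all genes. The neuron markers were also higher in this library, as given above, and the 5 endoderm markers summed to 3.65 FPKM in E14 and 28.8 FPKM in Suz12GT day 5 cells. The neural progenitor markers found (Pax6, Nes, Olig2 and Nkx6-1) went the other way, with sums of 82.8 FPKM in E14 and 56.8 FPKM in Suz12GT. Of these, Olig2 (22.1 and 10.5 FPKM) and Pax6 (21.9 and 8.18 FPKM) were lower in Suz12GT, while Nes and Nkx6-1 were nearly even.

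In Suz12delta and Eednull day 5 cells the members moved in both directions. In Suz12delta cells 23 of 68 members (33.8%) were at least 2-fold higher than in E14, against 26.6% of all genes, and 14 (20.6%) were at least 2-fold lower, against 9.52% of all genes. In Eednull cells 20 of 67 members (29.9%) were higher, against 21.6% of all genes, and 16 (23.9%) were lower, against 11.3% of all genes. The members' median log2 ratio was -0.05 in Suz12delta and -0.07 in Eednull cells, against 0.26 and 0.08 over all genes. The share of members that were lower thus stood above the share of all genes in both lines, while the share that were higher stood closer to it. With libraries scaled to a common 75th percentile the Suz12delta counts were 18 higher and 18 lower, where 23.8% and 11.0% of all genes were. The balance of directions in that line thus depended on the scaling. The Eednull counts were still 20 and 16, where 21.7% and 11.3% of all genes were. These comparisons share the E14 library.

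**Figure D2:**
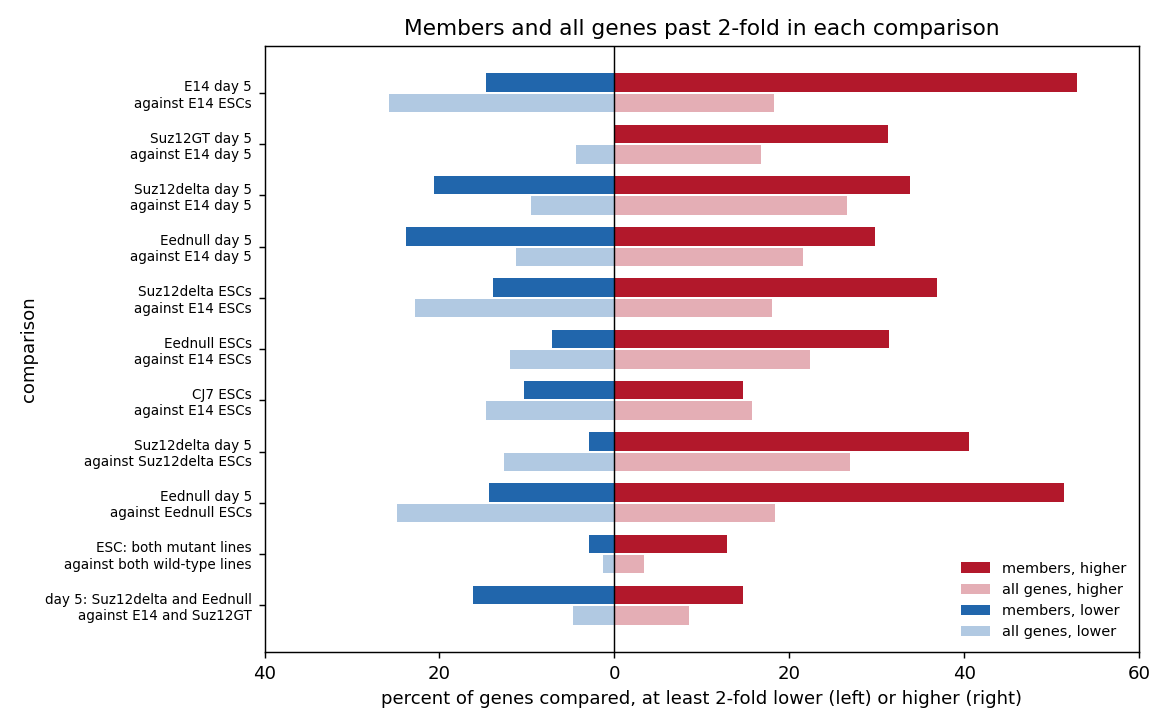
Percent of axon guidance members (dark bars) and of all genes compared (pale bars) that were at least 2-fold higher (right, red) or lower (left, blue) in each of the 11 comparisons. Members exceed all genes most in the rises over differentiation in E14 cells (52.9% against 18.3%) and in Eednull cells (51.4% against 18.4%).

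To find members that set both lines that lose nearly all H3K27me3 apart from both other lines at day 5, a member was counted where the lower of the Suz12delta and Eednull values was at least 2-fold above the higher of the E14 and Suz12GT values, or the reverse. By this measure 10 of 68 members (14.7%) were higher, where 8.50% of all genes were, and 11 (16.2%) were lower, where 4.77% of all genes were. Those lower in Suz12delta and Eednull cells were Slit1, Epha10, Plxna4, Unc5a, Dcc, Ntn1, Sema3d, Epha5, Slit2, Sema5b and Sema6c. Those higher were Epha1, Epha2, Efna1, Sema3b, Unc5b, Sema3c, Ephb4, Robo4, Sema3f and Epha7. Over protein-coding genes alone 10.1% were higher and 5.14% lower. With E14 as the only reference line 19 members were higher instead of 10. The share of all genes under that looser rule was not computed, so this rise is not read as particular to the members.

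**Figure D3:**
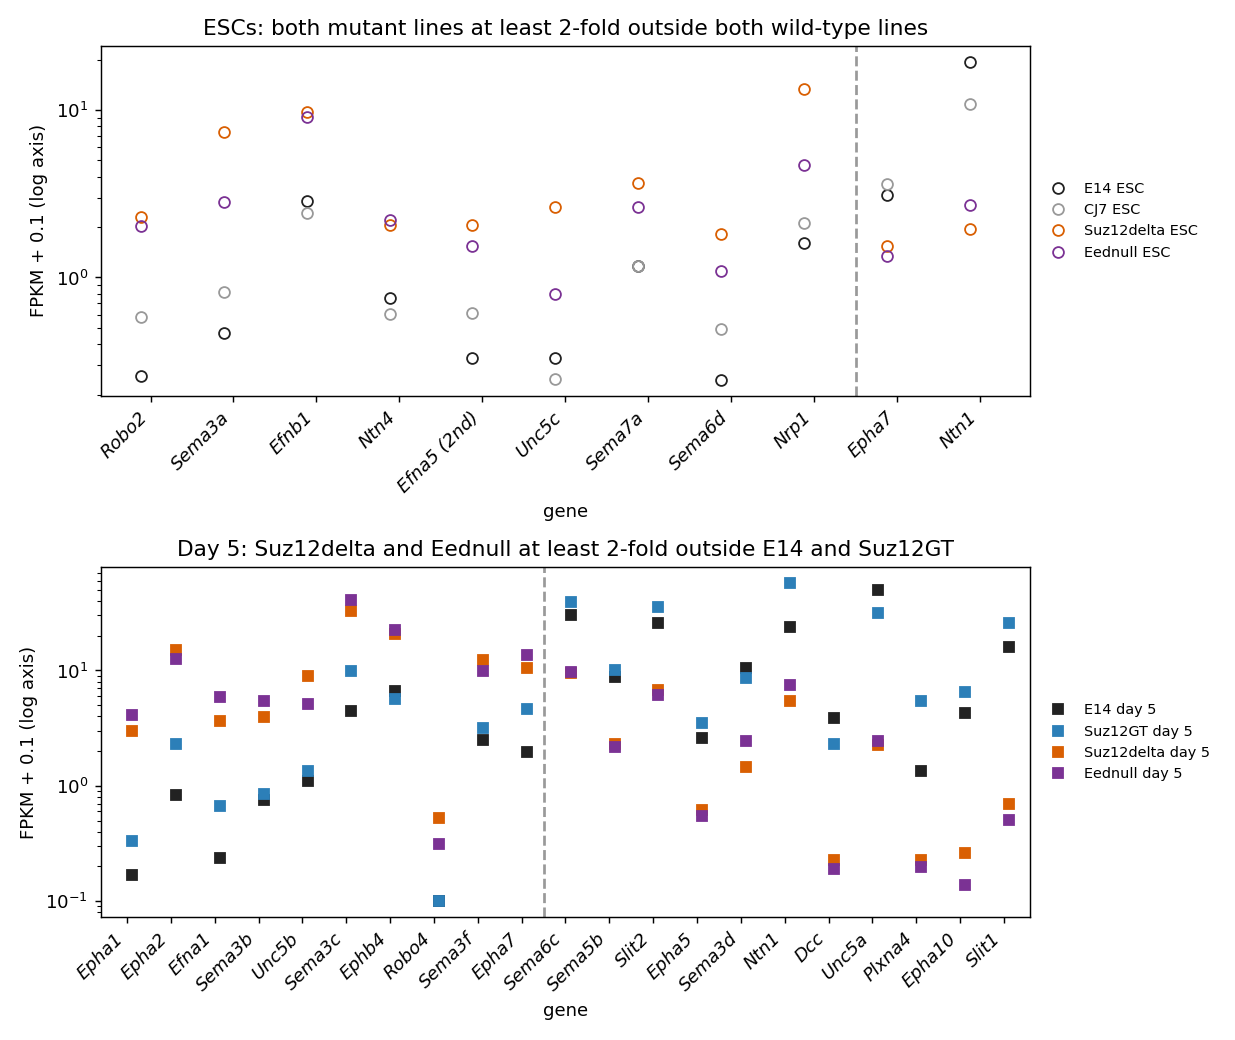
FPKM + 0.1 on a log axis of each member that lay at least 2-fold outside in the comparison of libraries 2 against 2, with 1 point per library, in ESCs (top, open circles) and at day 5 (bottom, filled squares). Members left of the dashed line were higher in Suz12delta and Eednull cells, and members right of it were lower.

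In the values by family below, ESC values are listed in the order E14, CJ7, Suz12delta and Eednull, and day 5 values in the order E14, Suz12GT, Suz12delta and Eednull.

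Among the Slits, Slit1, a secreted repellent of commissural and motor axons (chromosome 19, 41674747 to 41818155, NCBI build 37), was at 0.216, 0.219, 0.412 and 0.541 FPKM in ESCs and at 15.8, 25.7, 0.591 and 0.409 FPKM at day 5. It thus reached over 15 FPKM in E14 and Suz12GT day 5 cells and stayed under 1 FPKM in every other library, with log2 ratios to E14 day 5 of -4.52 in Suz12delta and -4.96 in Eednull cells. Slit2 was at 2.76, 2.36, 10.9 and 4.32 FPKM in ESCs and 25.6, 35.7, 6.60 and 6.02 FPKM at day 5, so its day 5 groups did not overlap either, at log2 ratios of -1.94 and -2.07. Slit3 differed less, with 3.89, 2.96, 9.79 and 2.87 FPKM in ESCs and 22.4, 21.9, 12.7 and 10.9 FPKM at day 5. Suz12delta ESCs had the highest ESC values of Slit2 and Slit3, at log2 ratios to E14 of 1.95 and 1.31, while in Eednull ESCs these were 0.63 and -0.43.

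Robo2, a main Slit receptor on motor and commissural axons (chromosome 16, 73892551 to 74412070), was at 0.156, 0.484, 2.20 and 1.94 FPKM in ESCs and at 20.4, 36.9, 9.93 and 15.1 FPKM at day 5. Both mutant ESC lines were above both wild-type ESC lines, and at day 5 the order was reversed, though Eednull was within 2-fold of E14 (log2 ratio -0.44) and Suz12delta just outside it (-1.03). Robo1, on the same chromosome, was more even, at 4.42, 3.58, 4.29 and 1.77 FPKM in ESCs and 6.42, 9.65, 8.25 and 7.81 FPKM at day 5. It was lowest in Eednull ESCs. Robo4, which is known from endothelial cells, was at 0, 2.0, 0.440 and 0.573 FPKM in ESCs and at 0, 0, 0.431 and 0.210 FPKM at day 5, so that it was listed at 0 in E14 and Suz12GT day 5 cells. The 5 endothelial markers summed to 0.267 and 3.90 FPKM in those cells and to 13.4 and 10.5 FPKM in Suz12delta and Eednull day 5 cells. Robo3, the divergent Robo of commissural axons, was at most 0.596 FPKM.

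Of the netrins, Ntn1, the netrin of the floor plate (chromosome 11, 68022866 to 68214325), was at 19.3, 10.7, 1.85 and 2.60 FPKM in ESCs and at 23.5, 57.0, 5.34 and 7.39 FPKM at day 5. It was lower in Suz12delta and Eednull than in the other lines on both days, with log2 ratios to E14 of -3.32 and -2.84 in ESCs and -2.12 and -1.66 at day 5, while CJ7 ESCs were at -0.84 and Suz12GT day 5 cells at 1.27. In E14 cells it changed little over differentiation (0.28). Ntn4, a laminin-binding netrin of basement membranes, was at 0.653, 0.507, 1.94 and 2.12 FPKM in ESCs and 2.08, 3.96, 1.54 and 1.79 FPKM at day 5, so that the mutant lines were higher in ESCs and not at day 5. Ntn3 was at 0.732, 0.552, 0.444 and 0.816 FPKM in ESCs and 0.791, 1.39, 2.46 and 2.10 FPKM at day 5, and shares exon bases with Tbc1d24 on the same strand. Ntn5 was at most 0.208 FPKM.

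Unc5a, a netrin receptor that mediates repulsion (chromosome 13, 55050772 to 55107379), rose by 6.35 on the log2 scale in E14 cells, close to Robo2 (6.32), which was ahead of it with a pseudocount of 0.01 (6.94 against 6.58). It was at 0.511, 0.101, 0.439 and 0.558 FPKM in ESCs and at 49.8, 31.2, 2.15 and 2.36 FPKM at day 5, a log2 ratio to E14 day 5 of -4.47 in Suz12delta and -4.34 in Eednull cells. It still rose over differentiation in both lines, by 2.06 and 1.90 on the log2 scale. Dcc, the attractive netrin receptor, was at 0.0416, 0.193, 0 and 0.119 FPKM in ESCs and 3.75, 2.20, 0.129 and 0.0910 FPKM at day 5, and so was above 1 FPKM only in E14 and Suz12GT day 5 cells among the 8 libraries. Unc5b, which is also known from the vasculature, had the opposite pattern to Unc5a, at 5.70, 4.10, 10.6 and 13.6 FPKM in ESCs and 1.01, 1.23, 8.86 and 5.03 FPKM at day 5. It fell in E14 cells (-2.38) and was higher in Suz12delta (3.01) and Eednull (2.21) than in E14 day 5 cells. Unc5c was at 0.231, 0.148, 2.54 and 0.694 FPKM in ESCs and 1.19, 5.35, 4.59 and 6.60 FPKM at day 5, where E14 stood lowest and Suz12GT lay among the other mutants. Unc5d stayed low, at 0.0190, 0.247, 0.0914 and 0.222 FPKM in ESCs and 0.218, 1.22, 0.436 and 0.366 FPKM at day 5.

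**Figure D4:**
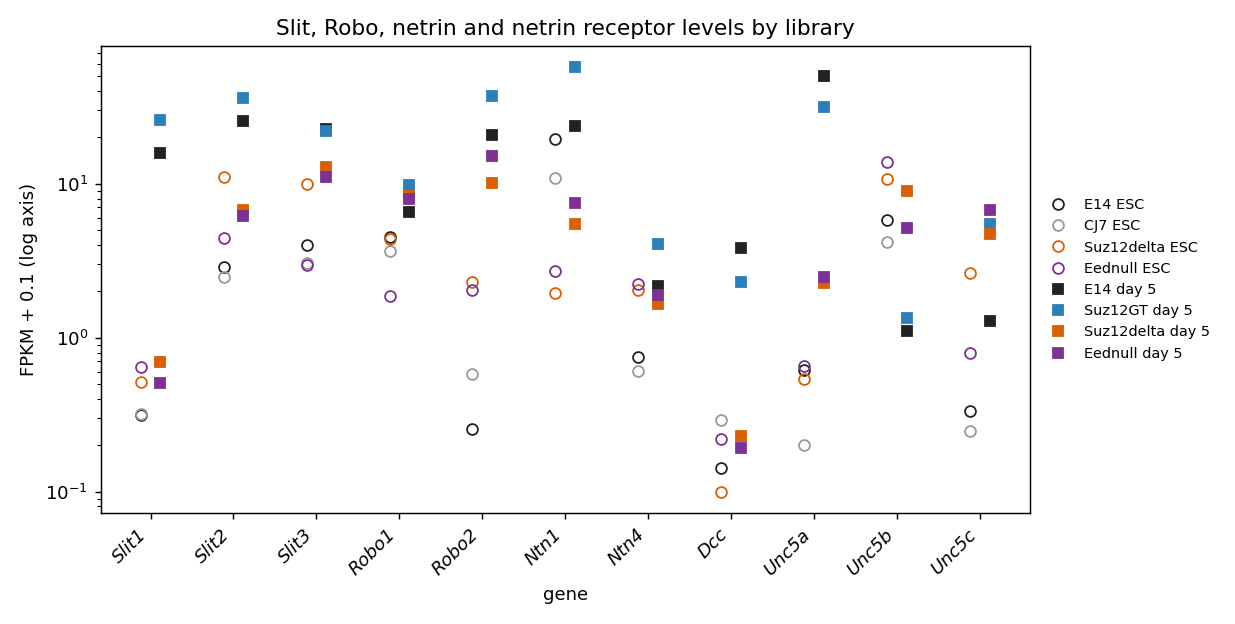
FPKM + 0.1 on a log axis of the Slits, Robo1, Robo2, Ntn1, Ntn4, Dcc and Unc5a to Unc5c in each library (open circles for ESCs, filled squares for day 5, colour for the line, 1 point per library). Slit1, Dcc and Unc5a in E14 and Suz12GT day 5 cells lie far above the other 6 libraries, and Unc5b in those cells lies below them.

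The promoters of 2 receptor pairs whose members moved in opposite directions at day 5 are shown for their density of CpG, since PRC2 is known to occupy CpG-rich promoters. They are the 250 bases before the transcription start that RefSeq gives on GRCm38.p6, and each matched NCBI build 37 exactly and at 1 place. That of Epha10 lies inside the gene as GENCODE vM1 annotates it (from 124558143), downstream of the start given there. Unc5a lies at chr13:55050522-55050771 on the plus strand, Epha10 at chr4:124558779-124559028 on the plus strand, Unc5b at chr10:60294330-60294579 on the minus strand and Epha2 at chr4:140856886-140857135 on the plus strand. Each is written from 5′ to 3′ with CpG in capitals.
Unc5a: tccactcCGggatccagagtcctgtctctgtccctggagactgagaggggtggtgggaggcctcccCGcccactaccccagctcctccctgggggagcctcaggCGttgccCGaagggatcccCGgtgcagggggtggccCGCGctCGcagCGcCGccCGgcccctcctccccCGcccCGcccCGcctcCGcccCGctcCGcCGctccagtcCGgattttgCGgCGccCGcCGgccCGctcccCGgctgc
Epha10: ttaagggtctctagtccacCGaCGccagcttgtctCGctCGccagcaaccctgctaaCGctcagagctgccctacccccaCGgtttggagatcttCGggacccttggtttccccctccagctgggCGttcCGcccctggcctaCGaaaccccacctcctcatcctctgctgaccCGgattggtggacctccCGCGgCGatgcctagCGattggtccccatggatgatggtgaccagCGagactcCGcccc
Unc5b: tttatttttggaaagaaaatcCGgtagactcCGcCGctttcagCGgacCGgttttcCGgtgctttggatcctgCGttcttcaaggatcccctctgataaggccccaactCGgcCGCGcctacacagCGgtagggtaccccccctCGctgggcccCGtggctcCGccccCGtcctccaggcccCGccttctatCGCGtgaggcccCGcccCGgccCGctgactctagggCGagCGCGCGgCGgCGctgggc
Epha2: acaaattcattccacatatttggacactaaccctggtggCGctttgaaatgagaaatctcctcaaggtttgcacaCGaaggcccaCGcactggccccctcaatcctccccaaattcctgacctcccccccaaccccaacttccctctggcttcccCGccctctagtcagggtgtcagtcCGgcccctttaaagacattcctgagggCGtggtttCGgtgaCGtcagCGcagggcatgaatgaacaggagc

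Unc5a and Epha10, which were lower in Suz12delta and Eednull than in E14 and Suz12GT day 5 cells, hold 25 and 17 CpG in these bases. Unc5b and Epha2, which were higher, hold 27 and 9. Among these 4 promoters the CpG counts of the 2 directions overlapped. Over the 300 bases from 250 before to 50 after the start, RefSeq promoters were found for 59 of the 69 symbols, with a median of 23 CpG against 8 over all 27025 genes with a promoter and 15 over protein-coding genes. There were 20 or more CpG in 55.9% of the members' promoters, in 28.8% of all genes' and in 38.9% of those of protein-coding genes. Of the members lower in Suz12delta and Eednull day 5 cells 6 of 7 with a promoter held 20 or more, and of those higher 4 of 8 did. Promoters of Dcc, Efnb3, Ntn1, Plxna1, Plxna4, Sema3b, Sema3f, Sema6a, Slit1 and Unc5d were not analysed here. Of 3 motifs searched on both strands, the GLI motif GACCACCCA matched 0 of the 59 promoters (0.289% of all genes'), the nuclear receptor half-site AGGTCA matched 11 (18.6%, against 18.1% of all genes') and the E-box CAGCTG, which reads the same on both strands, matched 12 (20.3%, against 18.3%). No match says only that these letters are not in this window. Where a gene had several promoters, any match counted and the highest CpG count was taken.

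Among the Eph receptors, Epha2, known from pluripotent cells and epithelia (chromosome 4, 140857155 to 140885299), was the most abundant Eph receptor in ESCs, at 40.0, 28.4, 22.1 and 44.2 FPKM, and was at 0.736, 2.18, 14.9 and 12.4 FPKM at day 5. Its log2 ratio of day 5 to ESCs was -5.59 in E14, -1.82 in Eednull and -0.56 in Suz12delta cells. Epha1, too, was lower in E14 and Suz12GT than in the other lines at day 5, at 5.6, 3.10, 2.05 and 5.52 FPKM in ESCs and 0.0696, 0.230, 2.86 and 4.02 FPKM at day 5. The pluripotency markers at day 5 summed to 1.05 FPKM in E14, 8.75 FPKM in Suz12GT, 11.4 FPKM in Suz12delta and 3.70 FPKM in Eednull cells, so that E14 was lowest and Suz12delta highest, as for Epha2, while Suz12GT and Eednull stood in the opposite order. Their part in the Epha2 values was not tested. Epha7 was at 3.0, 3.5, 1.43 and 1.24 FPKM in ESCs and 1.86, 4.53, 10.4 and 13.6 FPKM at day 5, so that it was lower in both mutant ESC lines than in both wild-type lines and higher in Suz12delta and Eednull cells at day 5. Ephb4, which is known from veins, was at 12.7, 10.1, 8.64 and 7.87 FPKM in ESCs and 6.52, 5.52, 20.6 and 22.1 FPKM at day 5.

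Epha10 behaved unlike these, at 0.119, 0.197, 0.0577 and 0.261 FPKM in ESCs and 4.22, 6.45, 0.162 and 0.0376 FPKM at day 5, with log2 ratios to E14 day 5 of -4.04 in Suz12delta and -4.97 in Eednull cells. Epha5, a receptor of topographic maps in the brain, was at 0, 0.0658, 0.0864 and 0.235 FPKM in ESCs and 2.50, 3.42, 0.513 and 0.449 FPKM at day 5. Ephb2 was the most abundant Eph receptor at day 5 in every line but Suz12delta, where Ephb4 stood just above it. It was at 4.97, 3.64, 8.93 and 5.71 FPKM in ESCs and 36.7, 28.5, 19.8 and 25.2 FPKM at day 5, and did not differ by 2-fold between any mutant and E14 on either day. Epha4, which sorts motor axons into the dorsal limb, was at 5.41, 4.85, 2.21 and 3.19 FPKM in ESCs and 12.8, 8.65, 8.59 and 9.60 FPKM at day 5, also within 2-fold of E14 in all 3 mutant lines at day 5. Ephb1 was at 0.0364, 0.0668, 0.103 and 0.359 FPKM in ESCs and 2.67, 7.13, 1.62 and 2.13 FPKM at day 5, and Epha8 stayed at or under 1.3 FPKM. Ephb3 and Ephb6 lay between 1.09 and 8.83 FPKM in all libraries, and Epha3 between 0 and 3.92 FPKM. Over the family, 6 of 14 Eph receptors were higher and 3 lower in Suz12delta than in E14 day 5 cells, where 26.6% and 9.52% of all genes were. In Eednull cells 4 of 13 were higher and 2 lower, where 21.6% and 11.3% of all genes were.

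At day 5, 4 of 9 ephrin entries were at least 2-fold higher than in E14 in Suz12delta, 3 in Eednull and 2 in Suz12GT cells, where 26.6%, 21.6% and 16.8% of all genes were. In each line 0 were lower, where 9.52%, 11.3% and 4.40% of all genes were, so with 9 entries a count of 0 is near the share of all genes. Efna1, a ligand of Epha2 in epithelia and vessels (chromosome 3, 89075655 to 89085064), was at 1.21, 1.77, 4.07 and 2.40 FPKM in ESCs and 0.138, 0.562, 3.52 and 5.80 FPKM at day 5, which gave log2 ratios to E14 day 5 of 3.93 in Suz12delta and 4.63 in Eednull cells. Efna3 and Efna4 lie next to it on chromosome 3, 32757 and 10425 bases apart in turn. Efna4 was at 6.21, 7.76, 12.9 and 11.7 FPKM at day 5, also higher in Suz12delta and Eednull than in E14 and Suz12GT but by less, at log2 ratios to E14 of 1.04 and 0.90. Efna3 was at 5.19, 7.68, 4.81 and 6.45 FPKM, with no such order. Their ESC values were 4.53, 1.60, 2.28 and 2.38 FPKM for Efna3 and 3.66, 2.74, 3.90 and 3.66 FPKM for Efna4. Both overlap an RNA on the opposite strand, and strand-specific counting is not stated.

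Efnb2, the ephrin of arteries and a ligand of Ephb4, was the most abundant ephrin in Suz12delta and Eednull day 5 cells, at 8.14, 5.97, 14.2 and 8.64 FPKM in ESCs and 9.19, 15.6, 30.5 and 32.8 FPKM at day 5. Efnb1 was at 2.77, 2.34, 9.69 and 9.01 FPKM in ESCs and 6.33, 9.24, 15.2 and 18.0 FPKM at day 5, so that Suz12delta and Eednull were above the other lines on both days, at least 2-fold in ESCs and less at day 5. Efnb3, a midline ephrin, was at 5.15, 1.93, 1.37 and 1.74 FPKM in ESCs and 11.6, 9.89, 9.66 and 7.59 FPKM at day 5. It was lower than E14 in all 3 other ESC libraries, CJ7 included. The Efna5 entries were at 1.26, 1.68, 6.49 and 2.53 FPKM and 0.232, 0.510, 1.97 and 1.44 FPKM in ESCs and at 10.8, 15.8, 10.5 and 10.5 FPKM and 3.11, 7.59, 2.87 and 2.45 FPKM at day 5. They share 2416 exon bases, so reads could be divided between them, and both were highest in Suz12GT day 5 cells. Efna2 was at 1.70, 2.07, 0.866 and 2.10 FPKM in ESCs and 5.46, 5.89, 4.98 and 3.78 FPKM at day 5.

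Of the secreted class 3 semaphorins, Sema3c, known from neural crest and the heart outflow tract (chromosome 5, 17080099 to 17236086), was at 6.24, 2.25, 43.8 and 4.95 FPKM in ESCs and 4.33, 9.83, 33.0 and 40.9 FPKM at day 5. It was thus high in Suz12delta cells on both days, but in Eednull cells at day 5 and not in ESCs, where the log2 ratio to E14 was -0.33. Sema3a, the classical collapsing factor of growth cones, was at 0.364, 0.717, 7.29 and 2.72 FPKM in ESCs and 0.549, 5.28, 5.13 and 3.57 FPKM at day 5, where E14 stood low and all 3 mutant lines were at least 2-fold higher, at log2 ratios of 3.05, 3.01 and 2.50.

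Sema3d went the other way at day 5, at 0.163, 0.695, 0.663 and 0.302 FPKM in ESCs and 10.3, 8.58, 1.35 and 2.33 FPKM at day 5. Sema3d, Sema3a and Sema3e are neighbours on chromosome 5, with gaps of 536650 bases between Sema3d and Sema3a and 422711 bases between Sema3a and Sema3e. Sema3e, a ligand of Plxnd1 in vessels, was at 7.20, 5.97, 1.34 and 5.83 FPKM in ESCs and 0.0845, 0.660, 1.27 and 1.64 FPKM at day 5. The neighbours Sema3b and Sema3f, 72273 bases apart on chromosome 9, moved alike at day 5. Sema3b was at 0.927, 0.760, 2.35 and 1.81 FPKM in ESCs and 0.660, 0.751, 3.86 and 5.32 FPKM at day 5. For Sema3f these were 1.84, 0.910, 6.94 and 2.47 FPKM and 2.38, 3.10, 12.2 and 9.73 FPKM.

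Of the transmembrane semaphorins, Sema6c and Sema5b were lower in Suz12delta and Eednull than in E14 and Suz12GT day 5 cells. Sema6c was at 5.31, 4.90, 3.97 and 4.14 FPKM in ESCs and 30.3, 39.4, 9.44 and 9.68 FPKM at day 5. Sema5b was at 1.61, 2.21, 1.59 and 1.76 FPKM in ESCs and 8.66, 10.05, 2.18 and 2.06 FPKM at day 5, so that it did not rise by 2-fold over differentiation in either of these lines (0.43 and 0.21). Sema6a, a ligand of class A plexins, stood apart in Suz12GT, at 3.88, 2.92, 3.23 and 4.54 FPKM in ESCs and 11.3, 39.4, 10.8 and 10.8 FPKM at day 5. So did Sema4f, at 0.902, 4.97, 1.34 and 1.35 FPKM at day 5. Sema5a was at 1.07, 6.56, 2.13 and 4.69 FPKM at day 5, high in Suz12GT and, next, in Eednull cells. Their ESC values were 1.08, 0.980, 1.77 and 1.39 FPKM and 1.04, 0.916, 5.06 and 1.3 FPKM. Sema6d, a transmembrane semaphorin of the developing heart, was at 0.145, 0.390, 1.72 and 0.993 FPKM in ESCs and 4.85, 14.2, 2.62 and 2.40 FPKM at day 5. It was higher in both mutant ESC lines and highest in Suz12GT at day 5.

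Sema4c was at 3.96, 0, 4.66 and 4.98 FPKM in ESCs and 23.2, 31.0, 21.3 and 17.9 FPKM at day 5, within 2-fold in all 3 mutant lines at day 5. Sema7a, the semaphorin tethered by a lipid anchor, was at 1.07, 1.07, 3.56 and 2.53 FPKM in ESCs and 2.26, 4.35, 1.29 and 0.604 FPKM at day 5. It was higher in both mutant than in both wild-type ESC lines and then fell in both mutant lines while rising 2-fold in E14. Sema4a, an immune semaphorin, was at 2.17, 5.94, 1.52 and 3.74 FPKM in ESCs and 0.921, 1.75, 1.97 and 1.3 FPKM at day 5, and was highest in CJ7. Sema4b was at 13.7, 11.6, 5.19 and 8.39 FPKM in ESCs and 5.08, 6.07, 6.37 and 4.54 FPKM at day 5, and Sema4g at 4.28, 1.84, 2.20 and 2.01 FPKM and 6.34, 10.1, 5.73 and 6.65 FPKM. Sema4d and Sema6b stayed between 0.507 and 8.25 FPKM.

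Of the neuropilins, Nrp1, a receptor for class 3 semaphorins and VEGF (chromosome 8, 130882973 to 131029362), was at 1.5, 2.03, 13.3 and 4.61 FPKM in ESCs and 7.25, 20.4, 16.2 and 17.7 FPKM at day 5. It was higher in both mutant than in both wild-type ESC lines, and at day 5 all 3 mutant lines were at least 2-fold above E14. Nrp2 was at 0, 3.60, 10.5 and 3.65 FPKM in ESCs and 18.8, 23.0, 9.88 and 11.9 FPKM at day 5, with no mutant 2-fold from E14 at day 5. The 0 in E14 ESCs keeps its change over E14 differentiation from being given as a ratio.

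Plxnb2 was the most abundant plexin except in E14 and Suz12GT day 5 cells, where Plxna1 was above it. It was at 21.2, 12.5, 34.1 and 23.7 FPKM in ESCs and 25.1, 33.8, 50.8 and 52.1 FPKM at day 5, just past 2-fold above E14 in Suz12delta (1.02) and Eednull (1.05) day 5 cells. The class A plexins, coreceptors of the neuropilins, had negative log2 ratios to E14 day 5 in those lines. Plxna1 was at 21.1, 11.9, 17.7 and 18.5 FPKM in ESCs and 30.2, 35.3, 21.6 and 20.7 FPKM at day 5, Plxna2 at 1.17, 1.19, 2.80 and 0.814 FPKM and 10.1, 14.6, 6.38 and 7.01 FPKM, and Plxna3 at 5.42, 4.39, 4.19 and 4.12 FPKM and 21.6, 31.1, 13.6 and 15.9 FPKM. Their ratios were -0.44 to -0.66 in those lines, under 2-fold. Plxna4, a class A plexin of sensory and sympathetic axons, was, at 0.0373, 0.222, 0.111 and 0.296 FPKM in ESCs and 1.25, 5.39, 0.128 and 0.0963 FPKM at day 5, with log2 ratios to E14 day 5 of -2.57 and -2.78. Plxnb1 was at 4.95, 3.26, 2.30 and 4.6 FPKM in ESCs and 18.1, 16.3, 17.5 and 18.6 FPKM at day 5, nearly even across the day 5 lines. Plxnd1, a vascular plexin, lay between 0.979 and 8.35 FPKM and Plxnc1 between 0.21 and 2.85 FPKM.

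**Figure D5:**
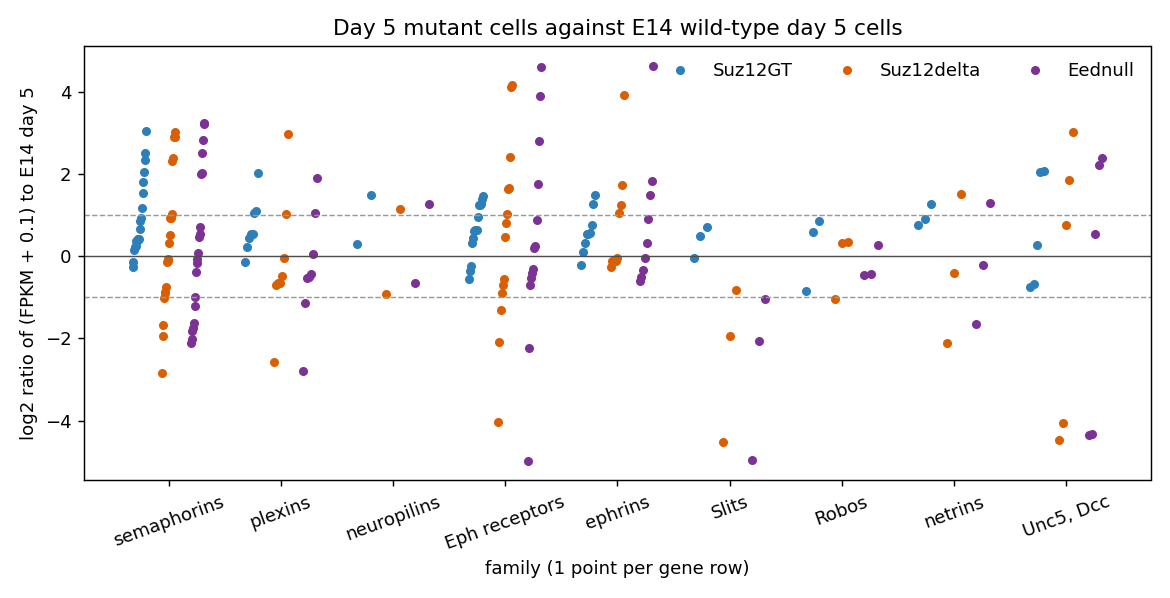
Log2 ratio of FPKM + 0.1 to E14 day 5 cells for each member in Suz12GT, Suz12delta and Eednull day 5 cells (1 point per gene entry, by family, with dashed lines at 2-fold, entries with a 0 left out). The Suz12GT points end above -1 in every family, while in Suz12delta and Eednull cells the Eph receptors, semaphorins and Unc5 receptors spread to both sides and no ephrin lies below -1.

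In ESCs, before differentiation, both mutant lines held more members above E14 than below it. In Suz12delta ESCs 24 of 65 members (36.9%) were at least 2-fold higher than in E14, where 18.0% of all genes were, and 9 (13.8%) were lower, where 22.8% of all genes were. With libraries scaled to a common 75th percentile the counts were 29 and 5, where 23.1% and 14.1% of all genes were. The median log2 ratio was 0.49 over the members and -0.28 over all genes, and the members' median was 0.19 with genes listed at 0 left out. In Eednull ESCs 22 of 70 (31.4%) were higher, against 22.4% of all genes, and 5 (7.14%) were lower, against 11.9%. Here the medians were 0.33 and 0.04. Among the counted changes, Epha3, Robo3, Robo4 and Nrp2 involved an E14 value of 0 in both mutant lines, as did Epha5 in Eednull ESCs. With genes listed at 0 left out, 20 of 61 members were higher in Suz12delta ESCs, where 13.7% of all genes were. In Eednull ESCs 17 of 65 then were, against 11.5% of all genes. Between the wild-type lines, 10 of 68 members (14.7%) were higher and 7 (10.3%) lower in CJ7 than in E14, against 15.7% and 14.7% of all genes, with medians of -0.22 and -0.12. The minimum of the comparison matters in Eednull ESCs, where 10 of 50 instead of 22 of 70 members were higher once 1 FPKM was asked for in either library. The share of all genes that were higher then was 9.57% instead of 22.4%.

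Counted 2 against 2, with both mutant ESC lines at least 2-fold outside both wild-type lines, 9 of 70 entries (12.9%) were higher, where 3.40% of all genes were, and 2 (2.86%) were lower, where 1.31% of all genes were. Those higher were Robo2, Sema3a, Efnb1, Ntn4, Efna5 under its second identifier, Unc5c, Sema7a, Sema6d and Nrp1. Those lower were Ntn1 and Epha7. With Suz12delta as the only mutant line 20 entries were higher and 5 lower, and with Eednull as the only one 15 were higher. The fibroblast and mesenchyme markers were also higher in both mutant ESC lines, at 563 and 277 FPKM in sum against 97.6 and 121 FPKM, and ESCs were grown on fibroblasts. With a pseudocount of 1 the counts were 2 higher and 1 lower. Shares of all genes were not computed for that pseudocount or for single mutant lines, which is a looser rule for any gene. These shifts in count are therefore not read as particular to the members.

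Many members were also higher at day 5 than in ESCs in the mutant lines. In Suz12delta cells 28 of 69 members (40.6%) were at least 2-fold higher at day 5 than in ESCs, against 26.9% of all genes, and 2 (2.90%) were lower, against 12.6%. With scaling to a common 75th percentile these counts were 20 and 3, where 17.7% and 16.8% of all genes were. In Eednull cells 36 of 70 (51.4%) were higher, against 18.4% of all genes, and 10 (14.3%) lower, against 24.8%. The members' medians were 0.73 and 1.16, against 0.43 and -0.08 over all genes. Of the 36 members that rose in E14 cells, 18 (50%) rose in Suz12delta cells, where they were 64.3% of the risers, and 20 (55.6%) rose in Eednull cells, where they were 55.6%. Over all genes 45.9% and 42.9% of the genes that rose in E14 cells also rose in these lines, near the members' shares, and these genes were 29.7% and 37.4% of the risers there. These shares do not allow for the different rates at which members and all genes rose in each line, given above. Of the 10 members that fell in E14 cells, 0 fell in Suz12delta, where 25.9% of all genes that fell in E14 cells did, and 4 fell in Eednull cells, where 41.1% did.

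In Suz12delta cells the largest rises were those of Ephb1 (3.08), Plxnb1 (2.88), Epha7 (2.78), Efnb3 (2.73) and Efna2 (2.40), and the 2 falls were those of Sema7a (-1.39) and Sema5a (-1.21). In Eednull cells the largest rises were those of Epha7 (3.35), Unc5c (3.08), Sema3c (3.02), Plxna2 (2.96) and Robo2 (2.89), and the largest falls those of Sema7a (-1.90), Epha8 (-1.89), Epha2 (-1.82), Sema3e (-1.77) and Sema4a (-1.45). Slit1, which rose by 5.65 in E14 cells, changed by 0.43 in Suz12delta and -0.33 in Eednull cells. For Epha10 these values were 4.30, 0.73 and -1.39. Epha7 was at -0.66 in E14 cells, where it did not pass 2-fold.

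Other genes of axon guidance signalling were listed from textbook knowledge, 58 symbols of which 57 were in the table under 61 identifiers. In E14 cells 32 of 59 compared were at least 2-fold higher at day 5 and 6 lower, where 18.3% and 25.8% of all genes were, with a median log2 ratio of 1.09. The highest ratios were those of the axonal adhesion molecule Cntn2 (6.57), the chemokine receptor Cxcr4 (6.19) and the netrin-G Ntng2 (5.81). At day 5, relative to E14, 13 of 60 were higher and 21 lower in Suz12delta (26.6% and 9.52% of all genes), 14 higher and 19 lower in Eednull (21.6% and 11.3%), and 16 higher and 1 lower in Suz12GT cells (16.8% and 4.40%). Cntn2 (-5.44 in Suz12delta and -6.59 in Eednull), the growth cone protein Gap43 (-4.15 and -4.26) and Ntng2 (-4.03 and -4.16) were lowest in both Suz12delta and Eednull cells. Gdnf, a ligand that attracts motor axons (4.39 and 4.11), and the chemokine Cxcl12 (3.59 and 4.02) were among the 3 highest in both. In ESCs, relative to E14, 23 of 59 were higher and 7 lower in Suz12delta (18.0% and 22.8% of all genes), 14 of 60 higher and 1 lower in Eednull (22.4% and 11.9%), and 6 of 58 higher and 6 lower in CJ7 (15.7% and 14.7%). Over differentiation 23 of 61 were higher and 6 lower in Suz12delta (26.9% and 12.6% of all genes), and 23 higher and 3 lower in Eednull cells (18.4% and 24.8%).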

How the data were processed

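RNA-seq of 8 libraries was used, 1 per condition. The FPKM values deposited by the authors came from Cuffdiff of Cufflinks 1.2.1 after alignment with Bowtie 0.12.7 under TopHat 1.3.2, on NCBI build 37 with an Ensembl-based annotation, correcting for sequence bias and for reads that map to several places. No count model was possible, and steps of 1 read were not found in the low values (at most 7.34% of low genes shared the commonest ratio). All columns matched a sample label.

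Log2 ratios were computed as described above, with no rescaling, and checked on simulated data. In each family the 4 members with the highest value in any library, in each comparison the 5 highest and 5 lowest ratios past 2-fold among members at 1 FPKM or more, and every member outside in a comparison of 2 against 2 libraries were named. The set of families, within which members were taken by symbol, and the lists of partners and markers were chosen with earlier results of these data known. Coordinates are GENCODE vM1, which holds 36104 of the listed identifiers. The spans of 58 of the 70 members were the same there, and all 70 overlapped. Exons of 16 members overlap those of another listed gene, 13 of them on the opposite strand, and strand-specific counting is not given in the sources used here. Sox1, Slc18a3, Map2 and Draxin were not analysed here. ChIP-seq and bisulfite data were not used. The alternatives were a pseudocount of 1 or of 0.01, a minimum of 1 FPKM or none, rescaling of libraries to a shared 75th percentile of 17842 genes and CJ7 as the wild-type ESC, and, chosen after seeing the data, genes above 0 alone, 1 Efna5 entry left out, and single lines in the comparisons of 2 against 2. Figures were drawn in Matplotlib 3.10.9, and values were computed in pandas 2.3.3 with NumPy 2.4.6 under Python 3.11.15.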

Additional observations from a re-analysis of the deposited data

Results flagged for a closer look

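For 4 members the change over differentiation in a mutant line was at least 2-fold and opposite in direction to a change of at least 2-fold in E14 cells. Of the 36 members that rose in E14 cells, 1 fell in Suz12delta and 3 in Eednull cells. Over all genes 192 and 302 of the 3944 that rose in E14 cells did so. Of the 10 members that fell in E14 cells, 0 rose in Suz12delta and 1 in Eednull cells. Over all genes 688 and 518 of 5564 did so, and the members' counts were near these shares. The difference between lines was not tested, since each line had 1 library per day. Sema7a rose by 1.0 on the log2 scale in E14 cells, and its log2 ratio of day 5 to ESCs was -1.39 in Suz12delta and -1.90 in Eednull cells. Epha10 rose by 4.30 in E14 cells and its ratio was -1.39 in Eednull cells, between values of 0.261 and 0.0376 FPKM that are low on both days. Plxna4 rose by 3.30 in E14 cells and its ratio was -1.01 in Eednull cells, between 0.296 and 0.0963 FPKM. Efna1 had a ratio of -2.46 in E14 cells and of 1.24 in Eednull cells, where it went from 2.40 to 5.80 FPKM. With a pseudocount of 1 each of the 4 lost at least 1 of its 2-fold changes. Log2 ratios were then 0.65 for Sema7a and -0.95 for Efna1 in E14 cells and -0.28 for Epha10 and -0.24 for Plxna4 in Eednull cells. Sema7a in Suz12delta cells (-0.992) and Efna1 in Eednull cells (0.999) also came just under 2-fold, so that Efna1 kept no 2-fold change. The ESC and day 5 libraries of Eednull cells may come from different preparation batches.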

How the results depend on the processing

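No paired analysis was possible because each condition had 1 library and the labels give no replicate numbers to pair. Of 164 recomputed counts of members, 141 stayed within 1.5 times the value reported and 23 did not. A pseudocount of 1 gave 6 members lower in E14 day 5 cells than in E14 ESCs, where 13.0% of all genes were. At day 5 it gave 12 higher in Suz12GT than in E14 (4.95% of all genes). Against E14 ESCs it gave 5 lower in Suz12delta (12.9%), and 6 higher and 2 lower in Eednull (3.97% and 5.12%). In CJ7 it gave 3 higher and 4 lower (2.10% and 5.80%). Over differentiation it gave 0 lower in Suz12delta (5.59%) and 5 lower in Eednull cells (7.75%). In both mutant ESC lines 2 were higher and 1 lower. The same pseudocount took the members' median over E14 differentiation from 1.16 to 0.61. Of 65 recomputed medians only this moved by more than 0.44, the median difference of members between the 2 wild-type ESC lines. A pseudocount of 0.01 gave 1 member lower in Suz12GT at day 5, where 5.52% of all genes were. A minimum of 1 FPKM gave 10 of 50 higher in Eednull ESCs, 3 of 45 higher in CJ7 and 6 of 56 lower over Eednull differentiation. The shares of all genes at that minimum were 9.57%, 5.11% and 15.2%. Scaling gave 5 lower in Suz12delta ESCs, where 14.1% of all genes were, and 1 lower in both mutant ESC lines. With CJ7 as the wild-type ESC, 3 members were lower in Eednull ESCs, where 10.7% of all genes were. Of the ratios past 2-fold 3 then changed sign. They were those of Sema3d in Suz12delta ESCs (-0.0597) and of Sema4g (0.12) and Unc5d (-0.11) in Eednull ESCs. Among members above 0 in both libraries 6 were higher in CJ7, where 6.69% of all such genes were. With Eednull as the only mutant ESC line 15 were higher, with Suz12delta 20 were higher and 5 lower, and with E14 as the only day 5 reference 19 were higher. No share of all genes was computed for the alternatives to the comparisons of 2 against 2. Of 3490 recomputed ratios of single members, 3368 stayed on their side of 2-fold, 83 fell under it, 36 passed it, and 3 that were past it changed sign. Changes of sign among ratios under 2-fold were not counted. Some of the 3368 were fixed in advance, since 4 settings leave a single ratio untouched. These were 422 with a minimum of 1 FPKM and 494 each with no minimum, genes above 0 alone and 1 Efna5 entry left out. The cause of the moves in counts, medians and ratios was not tested beyond the settings' own construction. Low values carry most of the limits, since depth is unknown and there is no replicate.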

Other observations

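Chromosomal neighbours among the members did not always move together. Efna1, at 0.138, 0.562, 3.52 and 5.80 FPKM at day 5 in E14, Suz12GT, Suz12delta and Eednull cells, lies 32757 bases from Efna3, which stayed between 4.81 and 7.68 FPKM. Robo4 and Robo3 lie 1646 bases apart on chromosome 9, and Ephb2 and Epha8 93431 bases apart on chromosome 4. At day 5 Ephb2 was at 19.8 to 36.7 FPKM and Epha8 at 0.231 to 0.695 FPKM. Sema3b and Sema3f, 72273 bases apart, were both at least 2-fold higher in Suz12delta and Eednull than in E14 and Suz12GT day 5 cells.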
